A study of Mus musculus with 12 samples.

Results

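Oxidative phosphorylation was described through the genes for the subunits of its 5 complexes, taken from both genomes of the cell. Members were genes whose symbol begins like those of complex I (Nduf), complex II (Sdha to Sdhd), complex III (Uqcr), complex IV (Cox4 to Cox8), complex V (Atp5) or the mitochondrial mRNAs (mt-Nd, mt-Co, mt-Cytb, mt-Atp). The count table lists 57010 genes, of which 110 had such a symbol. Of these, 8 were left out as named pseudogenes and 11 had a mean count under 10 over the 12 libraries, which left 91 members. The nuclear genome encodes 79 of them, with 37 in complex I, 4 in complex II, 8 in complex III, 13 in complex IV and 17 in complex V. The mitochondrial genome encodes 12, with 6 in complex I, 1 in complex III, 3 in complex IV and 2 in complex V. The members nearest above the minimum were Cox6b2 (mean count 10.3) and mt-Atp8 (23.0), and the genes nearest below it were Cox6c2 (9.67) and Cox7b2 (3.75). All 91 members passed the filter on low counts.

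The cells were large peritoneal macrophages, which reside in the abdominal cavity of mice, sorted as F4/80 high and MHCII low from female mice. WT naive cells came from wild-type mice without injection, and Tim4KO naive cells from mice lacking Tim4, a receptor by which these macrophages bind dying cells. WT ID8 and Tim4KO ID8 cells came from mice of the same genotypes that were injected into the peritoneum at 8 weeks of age with ID8 mouse ovarian tumour cells carrying ZsGreen and OVA. They were collected 24 h later and only ZsGreen+ macrophages were taken, so tumour challenge and selection for the tumour label cannot be told apart in this design. Each group held 3 libraries, and nothing in the labels says whether they came from separate animals or pools, so the p-values measure the spread between these libraries, which may be technical. The age of the naive mice and the way the Tim4 allele was made are not given in the sources used here.

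The respiratory chain is a set of large protein complexes in the inner mitochondrial membrane that pass electrons from NADH and succinate to oxygen and pump protons, and complex V, the ATP synthase, uses the proton gradient to make ATP. Complex II is encoded by the nucleus alone, whereas complexes I, III, IV and V combine nuclear subunits with a few that are translated inside the mitochondrion from its own genome. In macrophages the balance between oxidative phosphorylation and glycolysis is known to shift with activation.

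Library totals ran from 7358559 to 23170244 counts, so that 3 counts, taken as the lowest level told from 0, were worth 0.129 to 0.408 CPM, the unit of counts relative to the library total. Levels below are CPM scaled with TMM, edgeR's trimmed mean of M values. Timd4, the targeted gene, had 9685 to 21320 counts in WT libraries and 20 to 128 in Tim4KO libraries. The 12 markers of large peritoneal macrophages summed to 50697 to 59225 CPM in naive and 24497 to 29732 CPM in ID8 libraries. The 10 cycling genes summed to 2228 CPM in WT ID8 3 and 133 to 442 CPM elsewhere, and olfactory and vomeronasal receptor genes, a measure of background, to 5.57 CPM in WT ID8 3 and 39.5 to 862 CPM elsewhere, so this library stood apart. The highest summed level in any library was 24.6 CPM for 9 epithelial or tumour markers, 21.8 for 6 B cell, 10.4 for 7 T or NK cell, 35.1 for 6 mast cell, 28.4 for 6 neutrophil and 9.08 CPM for 4 erythroid markers, and 9 markers of small peritoneal macrophages or dendritic cells summed to 49.9 to 169 CPM. Of these markers 0 were at 0 in every library. The part of these markers in the results was not tested, while the background was entered as a covariate in one alternative fit. In WT the background was 314 to 862 CPM in naive and 5.57 to 246 CPM in ID8 libraries, without overlap. In Tim4KO it was 264 to 470 CPM in naive and 39.5 to 353 CPM in ID8 libraries, which overlapped. Background and challenge therefore cannot be fully told apart by the covariate fit in WT.

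Reads from a copy of identical sequence cannot be assigned, and parts of the mouse mitochondrial genome lie as copies in the nucleus, so the closest copies are shown first. In the GRCm38 reference with GENCODE transcripts, mt-Co2 (chrM:7013-7696) was matched over 681 of 681 aligned bases by Gm28661 (chr1:24614885-24615565, minus strand). mt-Co3 (chrM:8607-9390) was matched over 783 of 783 by Gm28437 (chr1:24613189-24613971, minus strand), and mt-Atp6 (chrM:7927-8607) over 678 of 678 by Gm10925 (chr1:24613974-24614651, minus strand). In mt-Nd4 (chrM:10167-11544) 876 of 876 aligned bases, 63.6% of the gene, matched Gm28439 (chr1:24611535-24612410, minus strand). The stretches printed here show how little separates 2 further copies from their genes. The first 80 bases of mt-Nd3 (chrM:9459-9806) and of Gm28438 (chr1:24612775-24613119, minus strand) hold the 1 difference found in 345 aligned bases. Bases 1054 to 1133 of mt-Co1 (chrM:5328-6872), counted from 1 at the gene's 5′ end, and the first 80 bases of Gm29216 (chr1:24615706-24616197, minus strand) hold all 6 differences found in 492 aligned bases. Each is written 5′ to 3′ on the strand of its gene, and capitals mark the bases that differ.
mt-Nd3: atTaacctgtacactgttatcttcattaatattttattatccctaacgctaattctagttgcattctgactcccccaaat
Gm28438: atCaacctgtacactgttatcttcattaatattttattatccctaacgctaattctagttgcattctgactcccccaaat
mt-Co1: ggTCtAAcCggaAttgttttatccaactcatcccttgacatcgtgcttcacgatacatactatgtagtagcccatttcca
Gm29216: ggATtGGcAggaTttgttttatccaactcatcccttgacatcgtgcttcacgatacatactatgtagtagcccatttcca

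Promoters of respiratory genes are textbook sites of the transcription factor NRF1. RefSeq windows (GRCm38.p6, 250 bases before to 50 after the start) were matched for 66 of the 79 nuclear members, as 71 windows. On either strand, the NRF1 motif (GCGCN followed directly by TGCGC) was present in 18 of the 71 windows (25.4%), against 4.60% of all 32851 windows of this length. The YY1 motif AAGATGGCG was present in 7 (9.86%, against 1.40%), the ERR motif AAGGTCA in 8 (11.3%, against 4.72%) and the ETS motif CCGGAAGT in 5 (7.04%, against 3.89%). A match is a match of letters only. The windows printed here, 1 per complex, belong to members that rose with ID8 in at least 1 genotype and hold an NRF1 match. Among such members the one with the smallest p over both genotypes was taken, so they were chosen after their values were seen. They lie at chr4:123718137-123718436 (Ndufs5, minus strand), chr9:50603800-50604099 (Sdhd, minus strand), chr9:108936398-108936697 (Uqcrc1, plus strand), chr5:115348909-115349208 (Cox6a1, minus strand) and chr2:73911277-73911576 (Atp5g3, minus strand). Capitals mark NRF1 matches and, in Ndufs5, Sdhd and Atp5g3, an ERR match on the other strand.
Ndufs5: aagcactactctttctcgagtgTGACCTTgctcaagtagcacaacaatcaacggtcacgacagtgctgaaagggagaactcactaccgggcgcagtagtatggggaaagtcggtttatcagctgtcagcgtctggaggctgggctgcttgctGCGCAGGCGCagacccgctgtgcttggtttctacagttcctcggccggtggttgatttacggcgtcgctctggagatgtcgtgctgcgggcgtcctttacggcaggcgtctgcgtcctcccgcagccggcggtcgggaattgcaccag
Sdhd: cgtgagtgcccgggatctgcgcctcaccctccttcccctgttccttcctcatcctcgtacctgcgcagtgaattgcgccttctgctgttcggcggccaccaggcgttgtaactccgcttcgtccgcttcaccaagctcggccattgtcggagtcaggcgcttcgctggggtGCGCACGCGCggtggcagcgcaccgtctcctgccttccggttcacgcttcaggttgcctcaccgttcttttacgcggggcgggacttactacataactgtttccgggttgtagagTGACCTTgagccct
Uqcrc1: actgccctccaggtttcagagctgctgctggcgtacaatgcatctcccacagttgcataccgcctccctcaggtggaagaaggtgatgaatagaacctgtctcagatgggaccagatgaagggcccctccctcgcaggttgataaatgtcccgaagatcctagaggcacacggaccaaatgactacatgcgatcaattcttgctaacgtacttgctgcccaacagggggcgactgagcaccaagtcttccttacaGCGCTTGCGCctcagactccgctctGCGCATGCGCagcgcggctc
Cox6a1: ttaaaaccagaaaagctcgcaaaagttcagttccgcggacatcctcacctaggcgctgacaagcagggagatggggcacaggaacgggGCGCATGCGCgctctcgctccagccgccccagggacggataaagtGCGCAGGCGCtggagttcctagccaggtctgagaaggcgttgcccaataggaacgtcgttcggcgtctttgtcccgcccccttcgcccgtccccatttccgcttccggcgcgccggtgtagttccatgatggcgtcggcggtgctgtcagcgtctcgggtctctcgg
Atp5g3: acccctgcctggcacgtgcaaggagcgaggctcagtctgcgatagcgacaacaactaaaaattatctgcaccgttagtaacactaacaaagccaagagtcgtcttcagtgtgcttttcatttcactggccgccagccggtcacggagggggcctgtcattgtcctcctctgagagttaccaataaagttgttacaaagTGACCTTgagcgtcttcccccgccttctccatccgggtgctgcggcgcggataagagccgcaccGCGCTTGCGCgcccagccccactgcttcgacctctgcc

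The 17 members with an NRF1 match had a median log2 change with ID8 of 0.39 in WT and 0.67 in Tim4KO, and the 49 members with a window and no match had 0.36 and 0.60. Of the 17, 8 rose in WT and 12 in Tim4KO, and of the 49 without a match 19 and 31 rose. For YY1 the medians were 0.49 and 0.68 with a match (7 members) and 0.31 and 0.59 without. For ERR they were 0.077 and 0.59 with a match (8 members) and 0.38 and 0.64 without, and for ETS 0.099 and 0.38 with a match (5 members) and 0.38 and 0.65 without. Members with an ERR or ETS match thus had lower medians than those without, and those with an NRF1 or YY1 match higher ones. None of these differences was tested.

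The challenge comparisons addressed what changed in macrophages that carried tumour label 24 h after injection, in each genotype. The mean summed levels of the nuclear and of the mitochondrial members went in opposite directions. Of the 12 mitochondrial members 7 in WT and 9 in Tim4KO were not called. Summed over the 79 nuclear members, the level was 9656 ± 675 CPM (SD, n = 3 here and below) in naive and 12387 ± 1242 in ID8 cells of WT, and 8086 ± 1611 in naive and 12229 ± 249 in ID8 cells of Tim4KO. Every ID8 library (11471 to 13801 CPM) lay above every naive library (6983 to 10063 CPM). Summed over the 12 mitochondrial members, it was 16898 ± 5291 CPM in naive and 12520 ± 2424 in ID8 cells of WT, and 12046 ± 2754 in naive and 8758 ± 681 in ID8 cells of Tim4KO. Here the WT groups overlapped, since WT naive 3 (11735 CPM) lay below WT ID8 1 (15311 CPM), while the Tim4KO ID8 libraries (8021 to 9364 CPM) were all below the Tim4KO naive ones (9784 to 15113 CPM). For each CPM of nuclear members the libraries held 1.73 ± 0.452 CPM of mitochondrial members in naive and 1.02 ± 0.273 in ID8 cells of WT, and 1.48 ± 0.0724 in naive and 0.716 ± 0.0585 in ID8 cells of Tim4KO. In bulk RNA fewer cells of a type and less RNA per cell cannot be told apart.

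**Figure D1:**
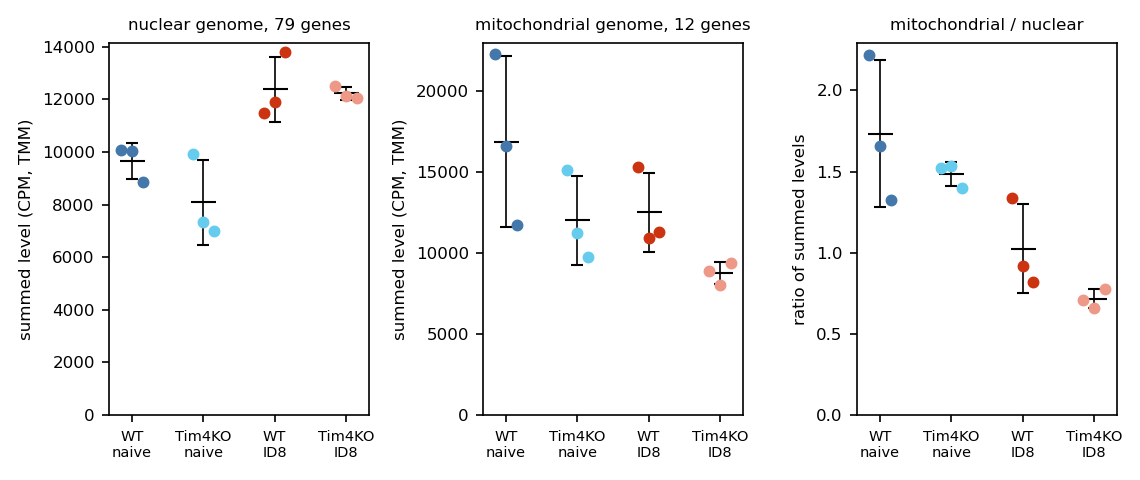
Summed level of the 79 nuclear members, of the 12 mitochondrial members (CPM, TMM) and their ratio, by group; dots are libraries, and the mean and SD are over 3 libraries. All ID8 libraries are above all naive libraries for the nuclear sum, and the mean ratio of mitochondrial to nuclear level is 1.73 in WT naive and 0.716 in Tim4KO ID8.

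In WT, edgeR called 34 of the 91 members higher and 9 lower in ID8 at an adjusted p under 0.05, while over all 15943 genes tested 19.5% were called higher and 12.3% lower. The 34 were all nuclear. Of the 9 that fell 5 were mitochondrial (mt-Nd2, mt-Nd4, mt-Nd5, mt-Nd6 and mt-Atp8) and 4 nuclear (Ndufa1, Ndufb8, Cox6b2 and Cox7a2l). The median log2 change was 0.37 over the nuclear members, -0.74 over the mitochondrial members and -0.04 over all genes. With upper-quartile scaling 15 were higher and 14 lower, against 1799 and 3508 of the 15943 genes, and the median of all genes moved to -0.28. Relative to the median of all genes the nuclear members stood 0.41 higher under both scalings, 0.33 higher in the fit to WT libraries alone, 0.19 higher when mean counts under 50 were dropped and 0.12 higher with the background as a covariate. With that covariate 16 were higher and 4 lower, against 14.2% and 7.21% of all genes. The fit to WT alone gave 21 higher, against 13.0% of all genes, and 6 lower. Without WT ID8 3, 26 of the 34 higher and 5 of the 9 lower calls held. The 9 lower calls became 2 without WT naive 1 (against 7.68% of all genes) or without WT ID8 2 (6.45%). They became 4 without WT naive 2 (7.93%) or without Tim4KO ID8 3 (8.74%), and 5 without Tim4KO naive 2 (9.48%). Relative to the median of all genes the mitochondrial median was -0.70 in the main fit and -0.26 without WT naive 1. Without a filter on low counts it was 0.21, where the median of all genes was -0.84.

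In Tim4KO, edgeR called 50 members higher and 4 lower, against 11.5% and 5.06% of all genes. The 50 were again all nuclear, and mt-Nd4, mt-Nd6, mt-Co1 and Cox7a2l fell. The median log2 change was 0.60 over the nuclear members, -0.64 over the mitochondrial members and -0.05 over all genes. Leaving out Tim4KO naive 2 gave 31 higher, against 5.41% of all genes, and leaving out Tim4KO naive 3 gave 32, against 6.22%. With Tim4KO naive 1 left out 49 of the 50 higher calls held, and the nuclear median was 0.80, against -0.07 over all genes. In nuclear sum Tim4KO naive 1, with 9936 CPM, lay closer to the WT naive libraries than to the 7340 and 6983 CPM of its own group. The 4 lower calls became 2 without Tim4KO naive 1 or 2 and 1 without Tim4KO ID8 1 or 2. Across the 91 members the log2 changes in WT and Tim4KO, which come from separate libraries, correlated with Pearson's r = 0.75 and Spearman's rho = 0.78, and across all genes with 0.71 and 0.76. Genes are not independent replicates, so these values are descriptions.

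**Figure D2:**
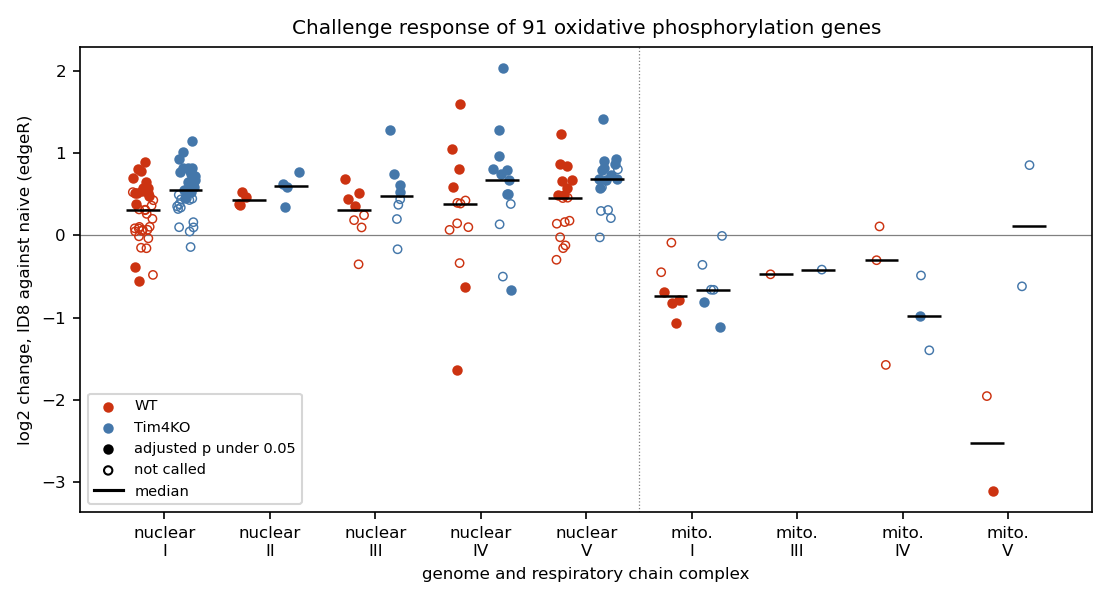
log2 change with ID8 (edgeR) of each of the 91 members by genome and complex, in WT and in Tim4KO; filled points have an adjusted p under 0.05 and bars are medians. Nuclear medians lie above 0 in each of the 5 complexes in both genotypes, and the filled points of the mitochondrial genome all lie below 0.

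Complex I takes electrons from NADH. Of its 37 nuclear members 14 were called higher and 2 lower in WT, and 22 higher and 0 lower in Tim4KO. Of the 7 core subunits, which carry the flavin and the iron-sulphur clusters, 5 rose in each genotype (median log2 change 0.52 in WT and 0.58 in Tim4KO). Of the 30 accessory subunits 9 rose in WT and 17 in Tim4KO (0.20 and 0.54), and whether core and accessory subunits differed was not tested. Ndufs1, the largest core subunit, had 50.1, 55.2 and 54.3 CPM in WT naive and 76.2, 88.7 and 72.5 CPM in WT ID8. The Tim4KO values were 57.2, 47 and 49.7 CPM in naive and 77.1, 72.1 and 74.2 CPM in ID8. The ID8 libraries were above the naive ones in both genotypes (WT log2 change 0.57, SE 0.12, edgeR adjusted p = 0.00264; Tim4KO 0.54, SE 0.12, edgeR adjusted p = 0.0072). Ndufv2, another core subunit, rose by 0.65 and 0.63.

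The accessory subunit Ndufa10 had the smallest p of complex I in WT, with 124, 114 and 98.5 CPM in WT naive and 185, 211 and 193 CPM in WT ID8 (log2 change 0.81, SE 0.13, edgeR adjusted p = 0.000502). Tim4KO libraries held 113, 95.5 and 82.5 CPM in naive and 169, 170.4 and 161 CPM in ID8 (0.78, SE 0.13, edgeR adjusted p = 0.00131), again without overlap. Ndufa12 rose by 0.89 and 1.14, and Ndufa9 by 0.54 and 0.82. Ndufa4, counted here by its symbol although it is known as a part of complex IV, rose by 0.38 and 0.55. Its WT call held in 5 of the 10 other settings (adjusted p up to 0.376) and in 6 of 12 fits that left out 1 library, with edgeR adjusted p up to 0.106 (without WT naive 3). Ndufa1 went against these and fell in WT from 226 ± 13.1 to 173 ± 27.2 CPM (-0.39, SE 0.14, edgeR adjusted p = 0.0407). Ndufb8 fell in WT from 18.6 ± 2.74 to 12.6 ± 0.164 CPM (-0.56, SE 0.18, edgeR adjusted p = 0.0321). Neither was called in Tim4KO, where they changed by -0.14 and 0.10. Both calls were unstable, since of the 12 fits Ndufa1 kept its call in 2 and Ndufb8 in 5, with edgeR adjusted p up to 0.206 (without WT ID8 1) and 0.155 (without WT naive 2). With the replicate number as a block the edgeR adjusted p of Ndufa1 was 0.0537.

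Complex II, succinate dehydrogenase, feeds electrons from the tricarboxylic acid cycle into the chain, and all 4 of its subunits rose in both genotypes. The flavoprotein Sdha had 194, 228 and 226 CPM in WT naive and 256, 291 and 294 CPM in WT ID8. Levels in Tim4KO were 218, 223 and 202 CPM in naive and 279.8, 268 and 268 CPM in ID8. The groups did not overlap in either genotype (WT 0.38, SE 0.11, edgeR adjusted p = 0.0201; Tim4KO 0.34, SE 0.11, edgeR adjusted p = 0.0499). In Tim4KO the call held in 1 of the 12 fits without 1 library, and its edgeR adjusted p reached 0.22 without Tim4KO naive 3. The iron-sulphur subunit Sdhb had 148, 133 and 117 CPM in WT naive and 167, 177 and 206 CPM in WT ID8, and rose by 0.47 in WT and 0.77 in Tim4KO. The membrane anchors rose by 0.37 and 0.62 (Sdhc) and by 0.53 and 0.59 (Sdhd). In WT, Sdhb and Sdhc were each called in 5 of the 10 other settings and Sdha in 6. Of the 12 fits without 1 library the WT calls held in 10 for Sdha (lost without WT naive 1 or WT ID8 3), 10 for Sdhb (WT naive 3 or WT ID8 3) and 8 for Sdhc (WT naive 1 or 3 or WT ID8 2 or 3), and the Tim4KO call of Sdhd was lost without Tim4KO naive 2 or 3.

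In complex III, which hands electrons from ubiquinol to cytochrome c, 4 of the 8 nuclear members rose in each genotype and 0 fell. Uqcrq, a small subunit next to cytochrome b, had 119, 100 and 80.3 CPM in WT naive and 152, 145 and 182 CPM in WT ID8 (log2 change 0.68, SE 0.20, edgeR adjusted p = 0.0169). In Tim4KO it had 95.5, 57.5 and 54.3 CPM in naive and 172, 167 and 163 CPM in ID8 (1.27, SE 0.20, edgeR adjusted p = 0.000725). All ID8 libraries were above the naive libraries of their genotype, and the difference of 0.59 between the genotypes' changes was not called (edgeR adjusted p = 0.668). The core proteins Uqcrc1, whose promoter window is printed above, and Uqcrc2 rose by 0.52 and 0.44 in WT and by 0.61 and 0.53 in Tim4KO.

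Complex IV, cytochrome c oxidase, held the nuclear member with the largest log2 rise, Cox7a1, and the one nuclear member that fell in both genotypes, Cox7a2l. Of its 13 nuclear members 4 rose and 2 fell in WT, and 9 rose and 1 fell in Tim4KO. Cox5a, a subunit on the matrix side, had 58.5, 58 and 50.2 CPM in WT naive and 107, 95.3 and 141 CPM in WT ID8 (log2 change 1.05, SE 0.21, edgeR adjusted p = 0.00245). The Tim4KO values were 66.3, 31.8 and 41.3 CPM in naive and 115, 113 and 111 CPM in ID8 (1.28, SE 0.22, edgeR adjusted p = 0.00132). Each ID8 library was above each naive one. Cox5b rose by 0.80 and 0.97. Cox6b1, the nuclear member with the highest level per kilobase of exon (769 CPM), had 480.4 ± 44.3 CPM in WT naive and 644 ± 149.9 in WT ID8 without a call (0.42, SE 0.17, edgeR adjusted p = 0.0677). It rose in Tim4KO by 0.80. Cox4i1 was called in neither genotype (-0.34 and 0.13). Cox6a1 (0.39 and 0.74) and Cox8a (0.10 and 0.50) were called in Tim4KO and not in WT, with no call for the interaction. The Tim4KO call of Cox8a held in 6 of the 10 other settings and 4 of the 12 fits without 1 library (edgeR adjusted p up to 0.18, without Tim4KO naive 3). That of Cox6a1 was lost without Tim4KO naive 2 or 3 (up to 0.0556).

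Within the Cox7a family the forms differed in direction. Cox7a1, the form known from heart and skeletal muscle, had 3.47, 2.27 and 1.4 CPM in WT naive and 5.98, 7.13 and 7.99 CPM in WT ID8 (log2 change 1.60, SE 0.29, edgeR adjusted p = 0.000987). Tim4KO libraries held 2.13, 1.6 and 2.03 CPM in naive and 6.53, 8.58 and 8.76 CPM in ID8 (2.03, SE 0.30, edgeR adjusted p = 0.000398). It rose without overlap from a low level. Cox7a2, the widely expressed form, rose by 0.58 and 0.79. Cox7a2l, a related protein that joins complexes III and IV into supercomplexes, had 128, 157 and 153 CPM in WT naive and 84.6, 88.1 and 111 CPM in WT ID8 (-0.63, SE 0.14, edgeR adjusted p = 0.00364). Levels in Tim4KO were 147, 161 and 127 CPM in naive and 95.5, 92.7 and 86.6 CPM in ID8 (-0.66, SE 0.14, edgeR adjusted p = 0.00474). It fell without overlap in both genotypes and kept both calls in all 12 fits without 1 library. Per kilobase of exon the mean level over all libraries was 172 CPM for Cox7a2, 80.7 CPM for Cox7a2l and 9.01 CPM for Cox7a1. Cox6b2, the form of Cox6b known from testis, had 7, 14 and 17 counts in WT naive and 3, 5 and 4 in WT ID8 (-1.64, SE 0.59, edgeR adjusted p = 0.0451), and kept that call in 1 of the 12 fits, with edgeR adjusted p up to 0.182 without WT ID8 3. With the replicate number as a block its edgeR adjusted p was 0.0787, and the WT call of Cox7a2 was lost without WT naive 3.

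**Figure D3:**
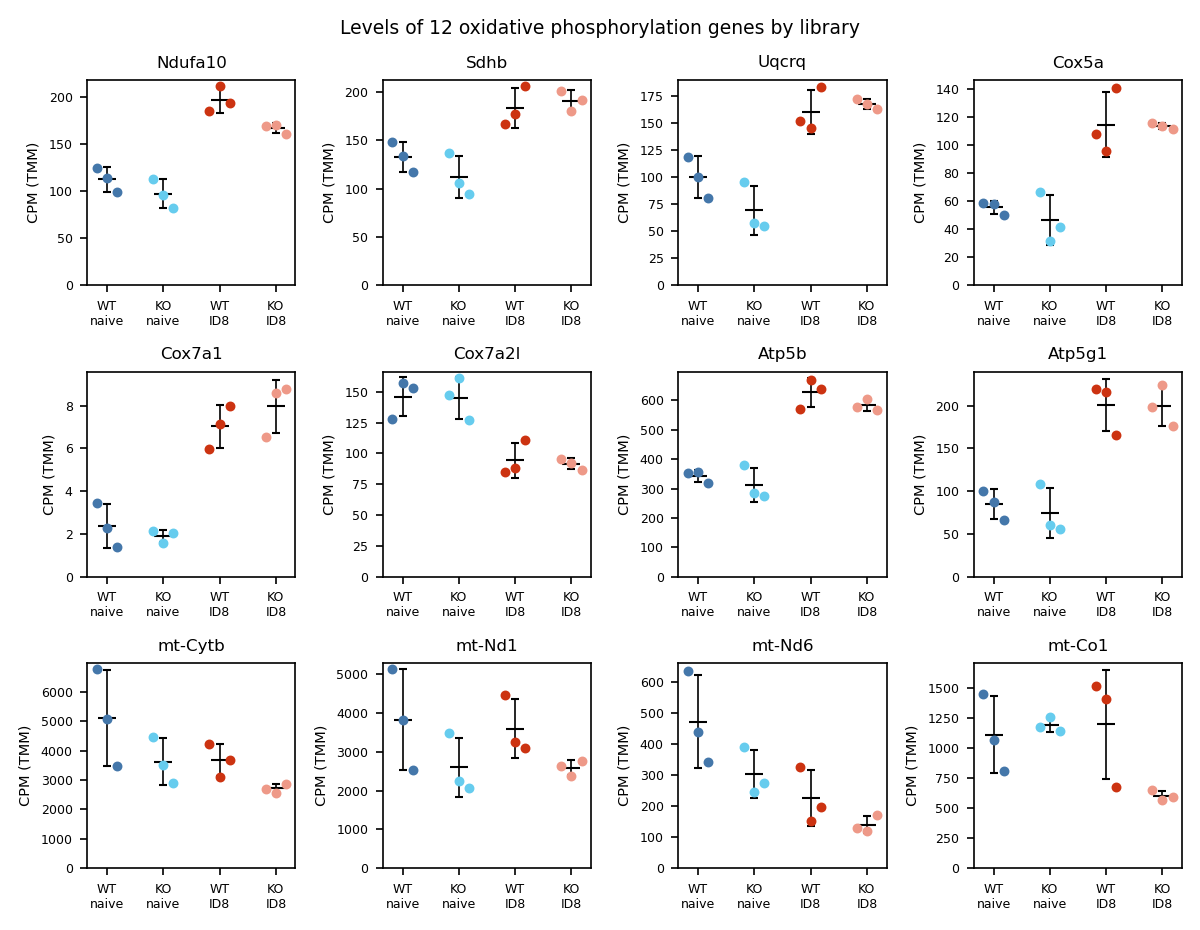
Level (CPM, TMM) of 12 members in each library by group; dots are libraries, and the mean and SD are over 3 libraries. The ID8 libraries are above the naive ones of their genotype for Ndufa10, Sdhb, Uqcrq, Cox5a, Cox7a1, Atp5b and Atp5g1 and below them for Cox7a2l, and mt-Co1 is lowest in the 3 Tim4KO ID8 libraries.

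Of the 17 nuclear members of complex V 8 rose in WT, 11 rose in Tim4KO and 0 fell in either. The catalytic subunit Atp5b had 354, 356 and 319.6 CPM in WT naive and 572, 670.3 and 639 CPM in WT ID8 (log2 change 0.87, SE 0.13, edgeR adjusted p = 0.0003). In Tim4KO it had 379, 286 and 274 CPM in naive and 579, 605 and 568 CPM in ID8 (0.90, SE 0.13, edgeR adjusted p = 0.000483). The groups were far apart in both genotypes. Its partner in the F1 head, Atp5a1, rose by 0.67 and 0.73, and the central stalk subunit Atp5d by 0.66 and 0.92. The ring that turns with the proton flow is built from copies of 1 c subunit, which the genes Atp5g1, Atp5g2 and Atp5g3 all encode. Atp5g1 had 101, 87.9 and 66.9 CPM in WT naive and 219.7, 216 and 165 CPM in WT ID8 (1.23, SE 0.23, edgeR adjusted p = 0.0015). The Tim4KO values were 108, 60.1 and 56.3 CPM in naive and 199, 224 and 177 CPM in ID8 (1.42, SE 0.23, edgeR adjusted p = 0.00125). Atp5g3 rose by 0.85 and 0.79, and Atp5g2 changed by 0.46 without a call in WT and rose by 0.81 in Tim4KO. Their mean levels were 140 CPM for Atp5g1, 93.7 for Atp5g2 and 139 for Atp5g3. Per kilobase of exon they were 28.5 CPM for Atp5g1, 56 for Atp5g2 and 63.7 for Atp5g3. The exonic lengths used were 4912, 1675 and 2181 bases, so the low rank of Atp5g1 depends on its length. Part of the sequence of Atp5g2 (35.8% by the measure given below) is also found in other genes. Which of the 3 genes gives most c subunit mRNA is therefore not shown.

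Calls were also counted by the length of the coding sequence. Of the 39 nuclear members with coding sequences of 156 to 411 bases 11 rose in WT and 23 in Tim4KO, and of the 39 with 423 to 2181 bases 23 rose in WT and 27 in Tim4KO, a difference that was not tested. Spearman's rho between coding length and log2 change across 78 members was 0.28 in WT and 0.01 in Tim4KO, against -0.18 and -0.21 across 13246 genes. These genes share libraries, and the values are descriptions. Of the 79 nuclear members 27 share exonic bases with another gene, 24 of them with a gene on the other strand, and whether counting used strand is not given in the sources used here. The share of a gene's 75-base words that is also found in another gene was over 20% in 5 nuclear members. It was 100% in Ndufb4c, whose reads cannot be told from those of Ndufb4.

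The mitochondrial genome gave 8 mRNAs with mean counts of 3645 (mt-Nd6) to 48919 (mt-Cytb) and 4 with far lower ones, mt-Co2 (35.4), mt-Co3 (89.6), mt-Atp6 (73.4) and mt-Atp8 (23.0). Of the 75-base words of the first 3 of these, 99.5%, 99.9% and 99.5% occur in another gene, which includes the copies named above. mt-Atp8 overlaps mt-Atp6 by 43 bases on the same strand and shares 0% of its words with annotated transcripts of other genes. Sequence outside annotated transcripts was not searched. mt-Atp8 (chrM:7766-7969) lies between mt-Co2 and mt-Atp6, whose copies lie close together on chr1, and whether a copy of mt-Atp8 lies there was not tested. A shared sequence did not always go with a low level, as mt-Nd3 shares 97.8% of its words and had a mean count of 4230. How reads with several matches were counted is not given in the sources used here. The levels and changes of mt-Co2, mt-Co3 and mt-Atp6 are therefore uncertain, as are those of mt-Atp8. The same limit applies to mt-Nd3, mt-Nd4 (61.5% of words shared) and mt-Co1 (39.8%). Per kilobase mt-Cytb (3304 CPM) and mt-Nd1 (3292 CPM) were the highest of all members, and mt-Co2 (4.21 CPM) was the lowest of the mitochondrial ones.

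**Figure D4:**
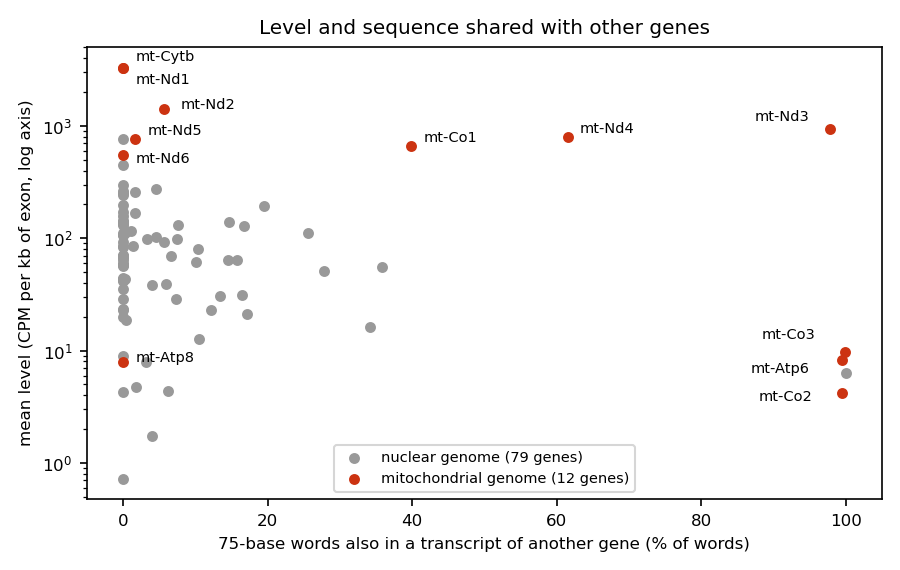
Mean level over 12 libraries (CPM per kilobase of exon, log axis) against the share of a gene's 75-base words that also occur in another gene, for the 79 nuclear and 12 mitochondrial members. mt-Co2, mt-Co3 and mt-Atp6 lie at the right at low levels, while mt-Nd3, with 97.8% shared words, lies at 936 CPM per kilobase.

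Of the mitochondrial mRNAs of complex I, mt-Nd4 and mt-Nd6 fell in both genotypes. mt-Nd6, the mRNA encoded on the opposite strand to the others, had 635, 439 and 343 CPM in WT naive and 326, 153 and 198 CPM in WT ID8 (log2 change -1.07, SE 0.30, edgeR adjusted p = 0.0195). Tim4KO libraries held 391, 247 and 274 CPM in naive and 128, 119.9 and 172 CPM in ID8 (-1.12, SE 0.30, edgeR adjusted p = 0.0261). The ID8 libraries were below the naive ones in both genotypes. mt-Nd4 had 2050, 1618 and 1245 CPM in WT naive and 1195, 712 and 872 CPM in WT ID8 (-0.82, SE 0.22, edgeR adjusted p = 0.013). Levels in Tim4KO were 1431, 1108 and 911 CPM in naive and 661, 566 and 743 CPM in ID8 (-0.81, SE 0.22, edgeR adjusted p = 0.0234). These groups did not overlap either, though 61.5% of the words of mt-Nd4 occur in other genes. Of the 12 fits without 1 library mt-Nd6 kept its call in 9 in WT and 9 in Tim4KO, with edgeR adjusted p up to 0.0795 (without WT ID8 3) and 0.102 (without Tim4KO ID8 1). mt-Nd4 kept its call in 10 and 8, with edgeR adjusted p up to 0.0671 (without WT naive 1) and 0.101 (without Tim4KO ID8 2). mt-Nd2 (-0.78, SE 0.26, edgeR adjusted p = 0.0375) and mt-Nd5 (-0.69, SE 0.23, edgeR adjusted p = 0.0356) fell in WT, and in Tim4KO changed by -0.66 and -0.66 without a call. Their WT calls held in 5 and 6 of the 12 fits without 1 library, and without WT naive 1 the edgeR adjusted p was 0.161 and 0.18.

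mt-Nd1, mt-Nd3 and mt-Cytb were called in neither genotype. mt-Nd1 had 5119, 3825 and 2529 CPM in WT naive and 4456, 3239 and 3090 CPM in WT ID8, which overlapped, and changed by -0.09 in WT and -0.01 in Tim4KO. mt-Cytb, the cytochrome b of complex III, changed by -0.47 and -0.42, and mt-Nd3 by -0.45 and -0.36. mt-Atp8 had 19, 121 and 66 counts in WT naive and 4, 4 and 18 in WT ID8 (-3.10, SE 0.60, edgeR adjusted p = 0.00155), and 13, 1 and 12 against 6, 3 and 9 counts in Tim4KO (-0.62, not called). In WT and Tim4KO mt-Co2 changed by -0.30 and -0.49, mt-Co3 by -1.57 and -1.40 and mt-Atp6 by -1.95 and 0.85, also without a call, so the low-count mRNAs had the widest range of changes. WT naive 1 had the highest level of mt-Nd1 to mt-Nd6 and mt-Cytb of all WT libraries, and without it the median change of the mitochondrial members in WT was -0.32 in place of -0.74. Without Tim4KO naive 1 that in Tim4KO was -0.31 in place of -0.64.

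mt-Co1, the catalytic subunit of complex IV, which shares 39.8% of its words with other genes, followed another order. In WT it had 1454, 1070 and 814 CPM in naive and 1514, 1407 and 677 CPM in ID8 cells. Tim4KO cells had 1174, 1256 and 1144 CPM when naive and 649, 570.4 and 596 CPM with ID8. The 3 Tim4KO ID8 libraries were the lowest of all 12, with WT ID8 3 next. In Tim4KO it fell by 0.98 on the log2 scale with ID8 (SE 0.26, edgeR adjusted p = 0.0212). That call was lost without Tim4KO naive 2 or any 1 of the Tim4KO ID8 libraries (edgeR adjusted p up to 0.0846). In WT it changed by 0.11 without a call, and by -0.14 with upper-quartile scaling. Mitochondrial rRNA, which is no member, summed over mt-Rnr1 and mt-Rnr2 to 10112 ± 3341 CPM in naive and 5399 ± 1503 in ID8 cells of WT, and 6096 ± 1573 in naive and 4129 ± 694 in ID8 cells of Tim4KO. Libraries of a group differed more in mitochondrial than in nuclear members. Over members with a mean count of at least 100, the median coefficient of variation was 31.4% for 8 mitochondrial against 8.19% for 76 nuclear members in WT naive and 23.7% against 12.8% in WT ID8, while for Tim4KO it was 25.1% against 21.4% in naive and 8.29% against 4.52% in ID8 cells.

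**Figure D5:**
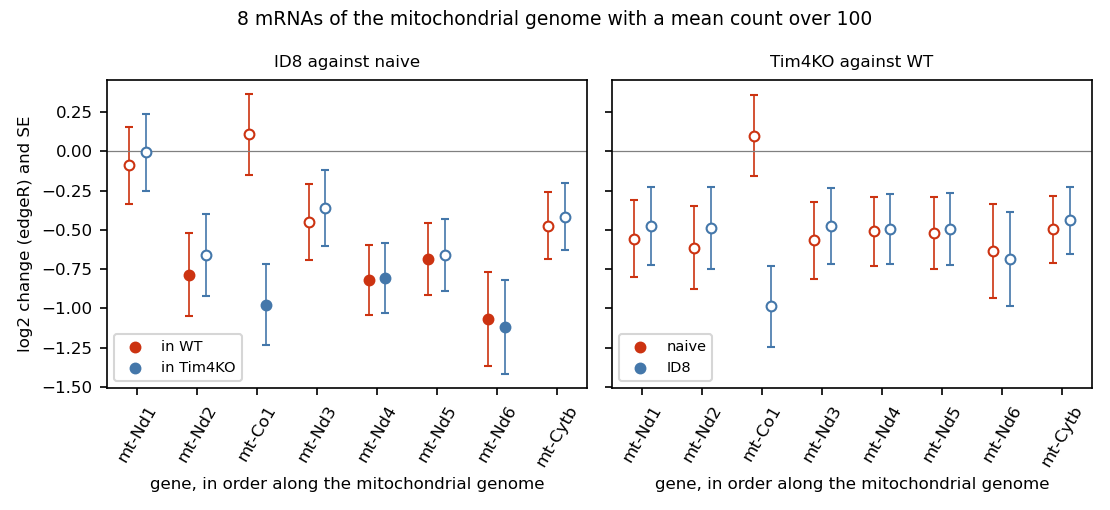
log2 change (edgeR, with SE) of the 8 mitochondrial mRNAs with a mean count over 100, in order along the genome, for ID8 against naive and for Tim4KO against WT; filled points have an adjusted p under 0.05. With ID8 mt-Nd4 and mt-Nd6 are lower in both genotypes, mt-Nd1 lies near 0 and mt-Co1 is lower in Tim4KO alone, a difference between genotypes that was not called.

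The genotype comparisons addressed what the loss of Tim4 changed without and with tumour challenge. In naive cells edgeR called 0 of the 91 members, against 0.0439% of all genes. At an unadjusted p under 0.05 there were 24. DESeq2 called 1 (mt-Atp8), against 0.326% of all genes, and limma voom 0. Of the 91 log2 changes 89 were negative (median -0.29), and of all 15943 genes 8055 were (median -0.00). The nuclear median was -0.27, with -0.47 without Tim4KO naive 1 and -0.17 without Tim4KO naive 3. The mitochondrial median was -0.59, with -0.29 without WT naive 1. The smallest p was that of mt-Atp8, whose counts are low and uncertain, as given above (-2.89, SE 0.60, edgeR adjusted p = 0.2). Over the other settings and the fits without 1 library its adjusted p ran from 0.000172 to 0.901.

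In ID8 cells edgeR called 0 members, against 0.0565% of all genes, with 5 at an unadjusted p under 0.05. DESeq2 called 1, against 1.66% of all genes, and limma voom 0. The nuclear median was -0.02 and the mitochondrial median -0.49. mt-Co1 had the smallest p (-0.99, SE 0.26, edgeR adjusted p = 0.201) and was the member called by DESeq2. Without WT ID8 3 edgeR called mt-Co1 (adjusted p = 7.77e-05) and Ndufs3; with that library left out 5.74% of all genes were called in this comparison. The interaction, the Tim4KO change minus the WT change, gave 0 called members, against 0.0% of all genes, with 10 at an unadjusted p under 0.05 and 0 calls by DESeq2 or limma voom. Of the 79 nuclear members 71 had a positive interaction (median 0.25), as had 8120 of the 15943 genes, but the larger number of calls in Tim4KO than in WT is not shown to be a different response. The smallest p was that of mt-Co1 (-1.09, SE 0.36, edgeR adjusted p = 0.668). With WT ID8 3 left out its edgeR adjusted p was 0.00326, and 2.12% of all genes were called for the interaction.

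Genes that build and serve the chain were counted over lists, to be read against the 19.5% of all genes called higher and 12.3% lower in WT, and the 11.5% and 5.06% in Tim4KO. The mitochondrial ribosome, which translates the mitochondrial mRNAs, had 60 of 77 tested genes higher (77.9%) and 1 lower in WT, and 51 higher (66.2%) and 0 lower in Tim4KO (median log2 change 0.63 and 0.57). Its protein gene Mrpl54 rose by 1.09 and 1.15. Of 14 genes of the tricarboxylic acid cycle 10 rose in each genotype and 0 fell, among them malate dehydrogenase Mdh2 (1.24 and 1.10), Dlst (0.99 and 0.82) and citrate synthase Cs (1.001 and 0.77). Of 16 genes for electron carriers and their synthesis 6 rose and 1 fell in WT, and 4 rose in Tim4KO. Cycs, cytochrome c, went from 96.6 ± 20.5 to 357 ± 80.3 CPM in WT and from 102 ± 24.3 to 232 ± 26.1 CPM in Tim4KO, a rise of 1.89 and 1.18. Coq7 of ubiquinone synthesis rose by 1.18 and 1.41.

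Of 14 assembly factors of complex I 7 rose in WT (50.0%) and 4 in Tim4KO (28.6%), and of 29 tested for complexes II to V 11 (37.9%) and 8 (27.6%) rose, with 0 lower. Ndufaf2 rose by 0.74 and 0.85, Cox18 by 1.25 and 0.78 and Uqcc2 by 0.97 and 1.33. Of 16 tested genes that copy or transcribe mitochondrial DNA 6 rose in WT (37.5%) and 1 in Tim4KO (6.25%, below the share of all genes), the latter Top1mt, a mitochondrial topoisomerase (0.99 and 0.92). Calls among 10 nuclear regulators were near the share of all genes, with 2 higher and 1 lower in WT and 1 in each direction in Tim4KO. Pprc1 (1.22) and Myc (1.27) rose in WT and Ppargc1a fell, with 22, 13 and 23 counts in WT naive and 5, 2 and 0 in WT ID8 (-2.92). In Tim4KO Esrra rose by 0.70 and Nrf1 fell by 0.41 on the log2 scale. Of 5 subunits or partners that the symbol rule missed 3 rose in each genotype: Cyc1, the cytochrome c1 of complex III (1.03 and 0.9996), Ndufab1 (0.46 and 0.65) and AA467197 (2.96 and 2.70). AA467197 had 7, 5 and 8 counts in naive and 6, 45 and 171 in ID8 cells of WT, and 2, 0 and 6 against 16, 11 and 31 in Tim4KO. In the genotype comparisons and the interaction edgeR called 0 genes of these lists. Unadjusted p under 0.05 was reached in the mitochondrial ribosome by 8 genes in naive cells, 11 in ID8 cells and 3 in the interaction.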

How the data were processed

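RNA of sorted macrophages was isolated with RNeasy micro, and the SMART-Seq mRNA LP kit was used for library preparation, per the labels' protocols. The authors deposited raw counts per gene for 12 libraries. FastQC, STAR 2.5 and the builds mm10 and GRCm39 are named in the submitters' processing notes without roles, and the counter, annotation, strand setting and treatment of multi-mapping reads are not given in the sources used here. Such choices bear most on mitochondrial genes with nuclear copies.

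Counts were fitted with edgeR 4.0.16 (R 4.3.3), with filterByExpr, TMM scaling and robust quasi-likelihood tests, over all 12 libraries and 4 groups (8 residual degrees of freedom). P-values were adjusted by Benjamini-Hochberg over 15943 genes, with a threshold of 0.05. Symbols were found for 52029 of 57010 identifiers. Alternatives were other scalings, filters on low counts, tests (DESeq2 1.42.0, limma 3.58.1 voom), samples in the fit and covariates, 10 settings in all, and 12 fits that left out 1 library. The fit was tested on simulated data, with 50 genes changed per fold in WT ID8. It recovered 7 of 50 at a 1.5-fold change, 33 at 2-fold, 49 at 3-fold and 48 at 4-fold, with 5 false calls. The simulation changed 200 of 15943 genes, while in the data 3105 were called higher and 1962 lower in WT. The adjustment was therefore stricter in the simulation, and its recovery does not give that of the challenge comparisons. A gene without a call may still have changed. Whether replicate numbers pair the libraries was checked by the correlation of deviations from group means. It was 0.103, 0.105 and 0.309 in the 3 same-numbered pairs of WT naive and WT ID8, which meets the limit of 0.1 set for pairing. In the other comparisons at least 1 pair was below it. Over all groups 6 of 18 same-numbered pairs (median 0.0654) and 6 of 36 others (median -0.0204) were above 0.1, and WT naive 1 and 2 correlated more with WT ID8 2 and 1 than with their own number. The labels do not say what the numbers mark. Tables and plots used Python 3.11.15, pandas 2.3.3 and matplotlib 3.10.9.

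The members and lists were chosen with earlier results of these data known. Named members were all mitochondrial ones, complex II, up to 3 called members per direction with the smallest p and the member with the highest CPM in each other complex and challenge comparison, the smallest p of each genotype comparison, and paralogue sets. Each list gave up to 3 called genes with the smallest p. Ndufs5 and Ndufs3 lie outside this rule and were named after their values were seen, as were Ndufb4 and Ndufb4c for their shared sequence. Atp5j, Uqcrfs1 and Ndufb6 also lie outside it and were named because their calls changed with the replicate block.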

Additional observations from a re-analysis of the deposited data

How the results depend on the processing

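All 34 members called higher in WT kept their sign in the 10 other settings, and 15 of them kept their call with upper-quartile scaling and 16 with the background covariate. The members called higher in WT numbered 15 with upper-quartile scaling, 21 with only the 2 groups compared and 16 with the background covariate. Of all genes 1799 of 15943, 1858 of 14241 and 2267 of 15943 were called higher there. Members called lower in WT numbered 14 with upper-quartile scaling, 14 with DESeq2 and 4 with the background covariate. In these settings 3508, 2731 and 1150 of the 15943 genes were called lower, a larger share than of the 91 members. In Tim4KO 8 of 90 members were called lower with only the 2 groups compared, against 1559 of 14124 genes. The naive genotype comparison gave 1 call (mt-Atp8) without a filter, with DESeq2 and with the background covariate. Of all genes 0.116%, 0.326% and 0.0439% were called there. The ID8 genotype comparison gave 2 without a filter and 1 with DESeq2 and with the background covariate, against 0.520%, 1.66% and 1.12%. The interaction gave 1 without a filter, against 0.144% of all genes. Median log2 changes in WT, with upper-quartile scaling and with a mean count of at least 50, were 0.13 and 0.20 for nuclear members, 0.0678 and 0.14 for complex I, 0.18 and 0.25 for complex II, 0.0585 and 0.13 for complex III, 0.14 and 0.22 for complex IV and 0.22 and 0.29 for complex V. With the background covariate they were 0.17 for nuclear members, 0.28 for complex II, 0.15 for complex IV and 0.13 for complex V. For complex I the median was 0.42 without a filter and 0.21 with only the 2 groups. The cause was not tested.

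Leaving out 1 library gave 23 to 43 higher and 2 to 8 lower calls in WT, 31 to 64 higher and 1 to 6 lower in Tim4KO, 0 to 1 in the naive and 0 to 2 in the ID8 genotype comparison and 0 to 1 in the interaction. Medians of the nuclear members in Tim4KO ran from 0.53 to 0.80, and those of the mitochondrial members from -0.78 to -0.31 in Tim4KO and -0.91 to -0.32 in WT. For complex I they ran from 0.49 to 0.80 in Tim4KO and 0.25 to 0.42 in WT, for complex IV from 0.57 to 0.93 and 0.24 to 0.52, for complex V in WT from 0.28 to 0.63, and for the nuclear genotype change in ID8 from -0.0958 to 0.0948.

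Of the named members these turned sign, none of them called in that comparison. Cox8a in WT was -0.14 with upper-quartile scaling, -0.0711 with a mean count of at least 50 and -0.16 with the background covariate, and -0.0466 to 0.27 without 1 library. Ndufb8 in Tim4KO was -0.0149 with upper-quartile scaling and -0.00355 with a mean count of at least 50, and Ndufa1 in Tim4KO ran from -0.19 to 0.00463 without 1 library. mt-Co1 in WT was -0.14 with upper-quartile scaling, -0.0706 with a mean count of at least 50 and -0.00584 with only the 2 groups, and ran from -0.0446 to 0.42 without 1 library. mt-Co2 in WT was 0.15 with limma voom, 0.13 with the background covariate and -0.64 to 0.67 without 1 library. Without 1 library mt-Co3 in WT ran from -2.04 to 0.56 and mt-Atp6 in Tim4KO from -0.59 to 1.34. mt-Nd1 in WT was 0.0102 without a filter, 0.14 with the background covariate and -0.29 to 0.19 without 1 library. In Tim4KO mt-Nd1 was 0.0408 without a filter, 0.0279 with limma voom, 0.0478 with the replicate block, 0.0752 with the background covariate and -0.13 to 0.28 without 1 library.

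With the replicate number as a block 32 of the 34 higher and 7 of the 9 lower calls in WT held. In Tim4KO 49 of the 50 higher and 4 of the 4 lower calls held. In WT, where all 3 same-numbered pairs of the comparison correlated, the block ended the calls of Atp5j, Cox6b2, Ndufa1 and Uqcrfs1, added that of Ndufb6 and changed no other member's call. Of 61 challenge calls of named members 24 were lost in at least 1 fit without 1 library. Low counts limit mt-Atp8, mt-Co2, mt-Co3, mt-Atp6 and Cox6b2.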

Other observations

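Nuclear copies of mitochondrial DNA, which are no members, had very different levels in libraries of 1 group. In WT their summed level was 1053, 102 and 547 CPM in naive and 44.1, 46.2 and 712 CPM in ID8 libraries, and in Tim4KO it was 44.1, 39.4 and 65.4 CPM in naive and 31.7, 26.5 and 29.8 CPM in ID8 libraries. Gm28661, the copy identical to mt-Co2 over 681 bases, had 8038, 54 and 7123 counts in naive and 31, 41 and 14714 in ID8 libraries of WT, against 37, 25 and 29 and 26, 21 and 37 counts in Tim4KO.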
